A study of Mus musculus with 4 samples.

Results

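The lysosome and autophagy genes described here are 43 named genes, taken as the members of a list: the MiT/TFE transcription factors, lysosomal membrane proteins and hydrolases, subunits of the proton pump that acidifies the lysosome (the V-ATPase), and the core autophagy machinery. Each was found in the files by its Entrez gene identifier. They are 43 of the 17621 genes in the files, and all 43 had a mean of at least 1 CPM (a count scaled to the size of its library), the minimum set for comparing a gene. The list is one of named functions, and the rule for membership uses no measured value, though it was set with earlier results of these data known.

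Lysosomes are acidic compartments in which proteases, glycosidases and lipid-degrading enzymes break down material from outside the cell and, through autophagy, from inside it. TFEB, TFE3 and MITF stay in the cytoplasm when the kinase complex mTORC1 is active at the lysosome. When mTORC1 is inactive they enter the nucleus and bind a short motif in the promoters of many lysosomal and autophagy genes. Seh1 has a place in the nuclear pore, as part of its Y complex, and another in GATOR2, which acts upstream of mTORC1 in amino acid sensing.

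The cultures were primary neural stem cells of P0 (newborn) mouse cortex, and RNA-seq gave 1 library in each of 4 groups. D0 Ctrl and D3 Ctrl carried the genotype Seh1 f/f, and D0 iKO and D3 iKO carried cmv-cre-ert,seh1 f/f. Both genotypes therefore hold the floxed Seh1 alleles, and they differ in the label by the Cre-ERT under cmv. The sources used here do not say whether both were given the inducer, or whether a library pools animals. Day 0 cells were in growth medium with EGF and bFGF, and day 3 cells were in differentiation medium after both growth factors had been withdrawn, so day and medium cannot be told apart. A single library stands for each group, so differences have no replicate check and no p-values are given. The intervals below are exact 95% intervals for a ratio of counts. They cover counting error only and leave out the spread between cultures and libraries. They also treat sequenced reads as independent molecules, which they are not.

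The libraries held 19611788 to 21040590 expected counts. Seh1l, the targeted gene, stood at 40.3 CPM in D0 Ctrl against 19.2 in D0 iKO, and at 33.2 in D3 Ctrl against 11.03 in D3 iKO. All 8 markers of neural stem and progenitor cells were at 1 CPM or above in each library. Of the 10 microglia and macrophage markers in the files, 1 (P2ry12) reached a mean of 1 CPM. The summed level of those 10 was 5.39 CPM in D0 Ctrl, 9.20 in D0 iKO, 2.06 in D3 Ctrl and 2.16 in D3 iKO, and Aif1, C1qa and C1qb were at 0 counts in D0 Ctrl, D0 iKO and D3 Ctrl. The 13 astrocyte markers summed to 2663 CPM in D0 Ctrl, 4052 in D0 iKO, 20539 in D3 Ctrl and 28610 in D3 iKO. The 9 neuron markers summed to 1088, 978, 1756 and 929 CPM in the same order, and the 10 oligodendrocyte lineage markers to 4745, 4236, 5044 and 3583 CPM. Single markers differed more than these sums. In iKO at day 3, 9 of 9 oligodendrocyte lineage markers compared were below 0, with a median log2 ratio of -1.54. Of these, 7 were 2-fold lower (4.78% of all genes were), led by Gpr17 at -6.41 and Pdgfra at -4.37. Of the neuron markers 5 of 9 were 2-fold lower there, led by Dcx at -3.18 and Ina at -2.52. At day 0, 4 of 9 oligodendrocyte lineage markers and 0 of 9 neuron markers were 2-fold lower in iKO (0.331% of all genes). Of the astrocyte markers 13 of 13 lay above 0 in iKO at day 0 (43.5% of all genes) and 10 of 13 at day 3 (48.7%). Cd44 at 1.96 and Clu at 1.74 were highest at day 3. Among the stem cell markers Vim at 0.94 and Fabp7 at -0.79 differed most at day 3, and P2ry12 was at -0.22. The astrocyte sum has the same order over the libraries as the summed level of the members given below, and the part of these cell type markers in the members' differences was not tested. In bulk RNA, fewer cells of a type and less RNA per cell cannot be told apart.

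Promoter sequences are shown first because the known target motif of the MiT/TFE factors can be read in them. RefSeq promoters on GRCm38.p6, each 250 bases before to 50 bases after a transcription start, were found for 37 of the 43 members, in 45 windows. CACGTG, the core of the motif, reads the same on both strands. It was present in the promoters of 13 of the 37 genes: Lamp1, Mcoln1, Cln3, Ctsa, Ctsd, Ctsl, Gla, Glb1, Gaa, Atp6v0d1, Atp6v1a, Atg5 and Atg7. This is 28.9% of the members' 45 windows, against 7.15% of all 32851 promoter windows and 9.75% of the 13339 windows of the genes compared. The motif is already known from promoters of lysosomal and autophagy genes. A higher share in a list of such genes therefore describes the list and is no result of these libraries. The median GC content was 56.7% in the members' windows, 52.7% in all windows and 61% in those of the compared genes. The 3 stretches below are the 250 bases before the start, 5′ to 3′ along the gene's strand, with each CACGTG in capitals. Cln3 is shown as the one member promoter with the full CLEAR palindrome, in which the motif is extended on both sides. Cln3 has 2 windows, of which 1 holds CACGTG, and that one is printed. It lies inside the annotated gene, chr7:126571207-126585817, so its start is not the outermost one. Ctsd and Lamp1 were chosen after the matches and their levels were seen, Ctsd for its ratio in the iKO libraries and Lamp1 for its 4 copies.
Cln3, chr7:126583237-126583486, minus strand: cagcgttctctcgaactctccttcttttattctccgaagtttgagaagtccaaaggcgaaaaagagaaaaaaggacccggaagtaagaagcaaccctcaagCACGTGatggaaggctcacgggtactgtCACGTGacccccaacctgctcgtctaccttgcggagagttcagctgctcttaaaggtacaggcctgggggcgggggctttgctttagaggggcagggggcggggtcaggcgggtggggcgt
Ctsd, chr7:142387828-142388077, minus strand: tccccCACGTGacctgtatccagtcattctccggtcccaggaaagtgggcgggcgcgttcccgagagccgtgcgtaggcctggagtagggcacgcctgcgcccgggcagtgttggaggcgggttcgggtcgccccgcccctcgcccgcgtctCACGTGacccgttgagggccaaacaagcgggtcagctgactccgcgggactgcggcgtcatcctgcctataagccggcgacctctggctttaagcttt
Lamp1, chr8:13158911-13159160, plus strand: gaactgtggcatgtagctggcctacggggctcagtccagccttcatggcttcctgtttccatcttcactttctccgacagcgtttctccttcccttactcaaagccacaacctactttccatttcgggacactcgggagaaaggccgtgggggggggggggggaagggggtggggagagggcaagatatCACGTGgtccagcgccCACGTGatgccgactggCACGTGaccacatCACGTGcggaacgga
In Cln3 the copies begin 149 and 121 bases before the start, and the second lies within that palindrome. In Ctsd they begin 245 and 98 bases before it. In Lamp1 all 4 lie between 61 and 15 bases before it.

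The longer forms contain CACGTG, so their counts overlap with those above. TCACGTG, searched with its other strand CACGTGA, was in 24.4% of the members' windows, 3.77% of all windows and 5.77% of those of the compared genes, and in 11 member genes. The CLEAR palindrome was in 2.22% of the members' windows (1 window), 0.326% of all and 0.652% of those of the compared genes. The related TCATGTG, searched with CACATGA, was in 11.1% of the members' windows, 3.77% of all and 1.92% of those of the compared genes. The member windows with it are those of Scarb2, Ctsa, Tpp1, Gla and Ppt1. The median log2 ratio of iKO to Ctrl was 0.34 for the 13 members with CACGTG and 0.33 for the 24 without it at day 0, and 0.38 against 0.41 at day 3. For TCACGTG it was 0.38 with and 0.32 without at day 0, and 0.44 against 0.38 at day 3. For TCATGTG, in 5 members, it was 0.48 against 0.32 and 0.44 against 0.38. Between days, members with CACGTG had a median of 0.35 in Ctrl, against 0.69 without it, and 0.69 against 0.73 in iKO. The part of these motifs in the ratios was not tested. A match describes the letters of the window and not binding.

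In growth medium at day 0, most lysosome and autophagy genes were somewhat higher in the iKO library than in the Ctrl library. All ratios are log2((CPM + 1)/(CPM + 1)) after scaling of the libraries by TMM, a method that centres most genes near a ratio of 1. The median over the 43 members was 0.31, against -0.06 over the 12976 genes compared. A log2 ratio above 0 was found for 38 of 43 members, and for 43.5% of all genes. The number was 37 to 41 under the alternative scalings and filters, and Atg5, Becn1, Gla and Gusb were the members with a sign that depended on them. No member was 2-fold higher on this scale (2.67% of all genes were) and none was 2-fold lower (0.331%). At a looser rule of 1.5-fold, 5 members were higher (8.91% of all genes) and none lower (5.50%). Those 5 were Ctsd, Wipi1, Mitf, Tpp1 and Cln3. Counting intervals of the ratio lay above 1 for 30 members (25.8% of all genes), below 1 for 1, Uvrag (39.5%), and held 1 for 12.

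After 3 days in differentiation medium the iKO library again held more RNA of these genes than the Ctrl library. The spread among them was wider than at day 0, as it was among all genes. The quartiles of the members were 0.08 and 0.47 at day 0, and 0.08 and 0.72 at day 3. Those of all genes were -0.28 and 0.21, and then -0.31 and 0.33. The members' median at day 3 was 0.35, against -0.01 over all genes, with 34 of 43 above 0 (48.7% of all genes, and 32 to 35 members under the alternatives). Ctsd and Psap, at 1.24 and 1.12, were 2-fold higher, and 6.28% of all genes were. None of the 43 was 2-fold lower (4.78%). Scaling by library totals instead moved the median of all genes by 0.12 at day 0 and by -0.08 at day 3, so small ratios are best read relative to that median. At 1.5-fold 13 members were higher (15.1% of all genes) and none lower (11.3%). The counting interval lay above 1 for 33 members (34.5% of all genes) and below 1 for 5 (35.6%): Ulk1, Becn1, Uvrag, Atg9a and Atg16l1. Between the days, 32 members were above 0 at both (29.1% of all genes), and Becn1, Uvrag and Atg16l1, 3 members, were below 0 at both (36.9%). Ctsd, Tpp1, Cln3 and Mitf were 1.5-fold higher at both days, 4 members against 4.79% of all genes. The authors' deposited table of differential genes at day 3 lists 1774 genes at an absolute log2 ratio of at least 1. These are 10.1% of the genes in the files. The members present are 2, Ctsd at 1.16 and Psap at 1.03. That table compares the same D3 iKO and D3 Ctrl groups, so it is no independent check.

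**Figure D1:**
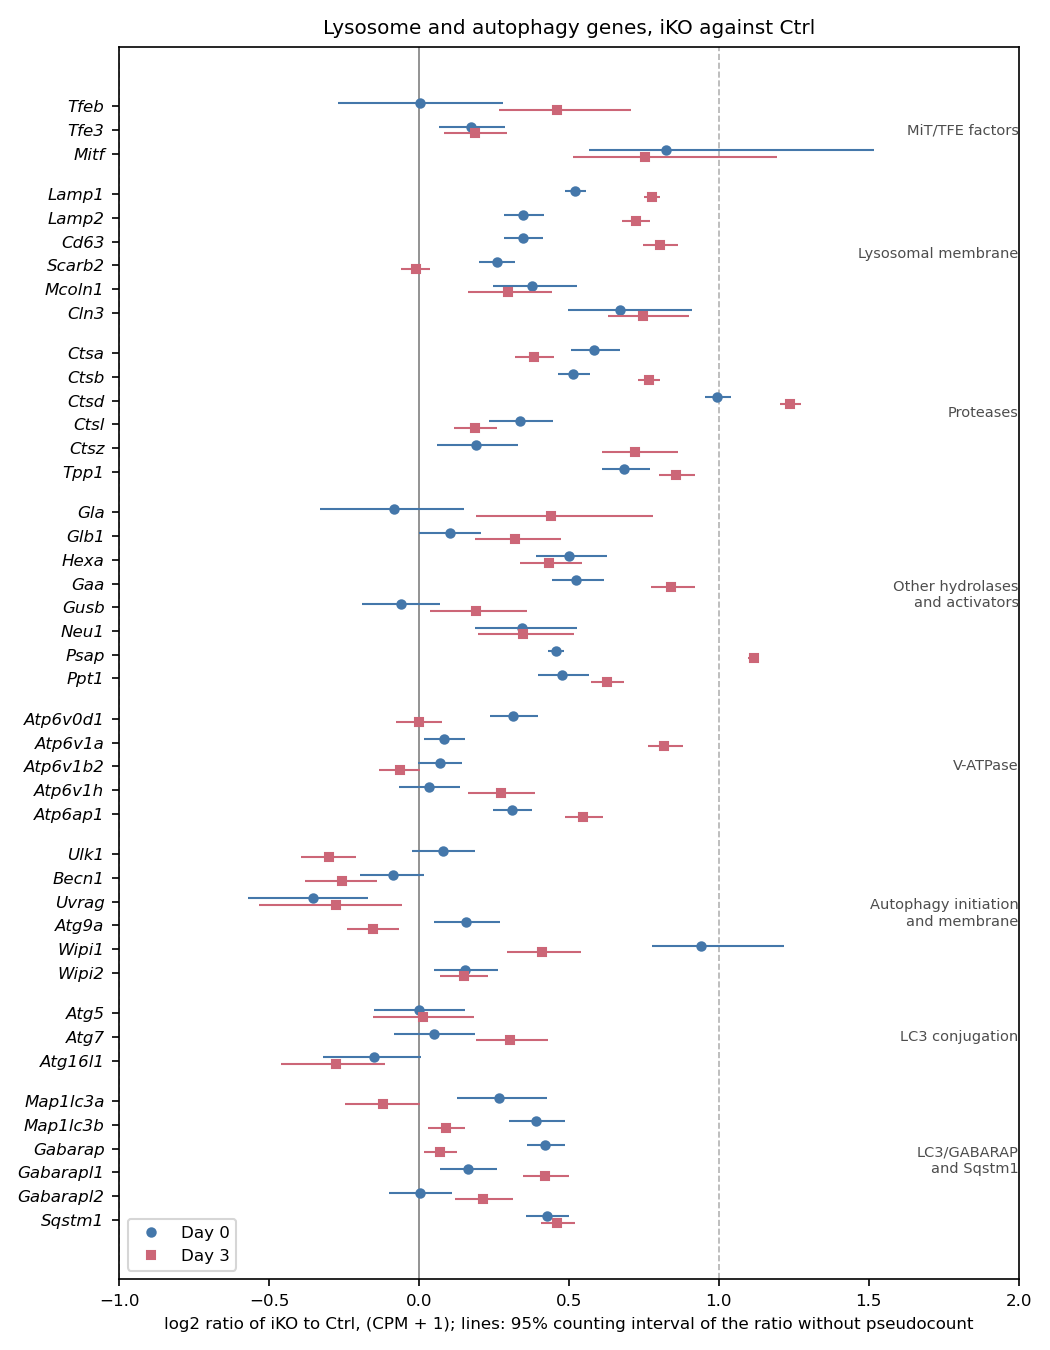
Log2 ratio of iKO to Ctrl (horizontal axis) for each of the 43 members (rows, grouped by role) at day 0 (circles) and day 3 (squares). Horizontal lines are 95% counting intervals of the ratio without pseudocount, and dashed lines mark 2-fold. Most lysosomal members lie right of 0 at both days, and autophagy initiation members lie on both sides of it.

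Lysosomal members stood further above 0 than autophagy members. The 20 genes for lysosomal membrane proteins, proteases and other hydrolases had a median of 0.42 at day 0 and 0.67 at day 3, with 18 and 19 of 20 above 0. The 15 autophagy genes had medians of 0.15 and 0.07, with 12 and 9 of 15 above 0, and their day 3 median was -0.01 with library totals. Of all genes, 43.5% lay above 0 at day 0 and 48.7% at day 3. These shares are also the reference for the counts by role below. Summed over all 43, the level was 4828 CPM in D0 Ctrl, 6407 in D0 iKO, 8252 in D3 Ctrl and 13450 in D3 iKO. The sum was 1.33-fold higher in iKO at day 0 and 1.63-fold higher at day 3. Psap alone made up 14.4% of the summed FPKM of the members in D0 Ctrl, 14.8% in D0 iKO, 18.6% in D3 Ctrl and 24.99% in D3 iKO. Without Psap the 2 ratios of summed CPM were 1.32 and 1.48.

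**Figure D2:**
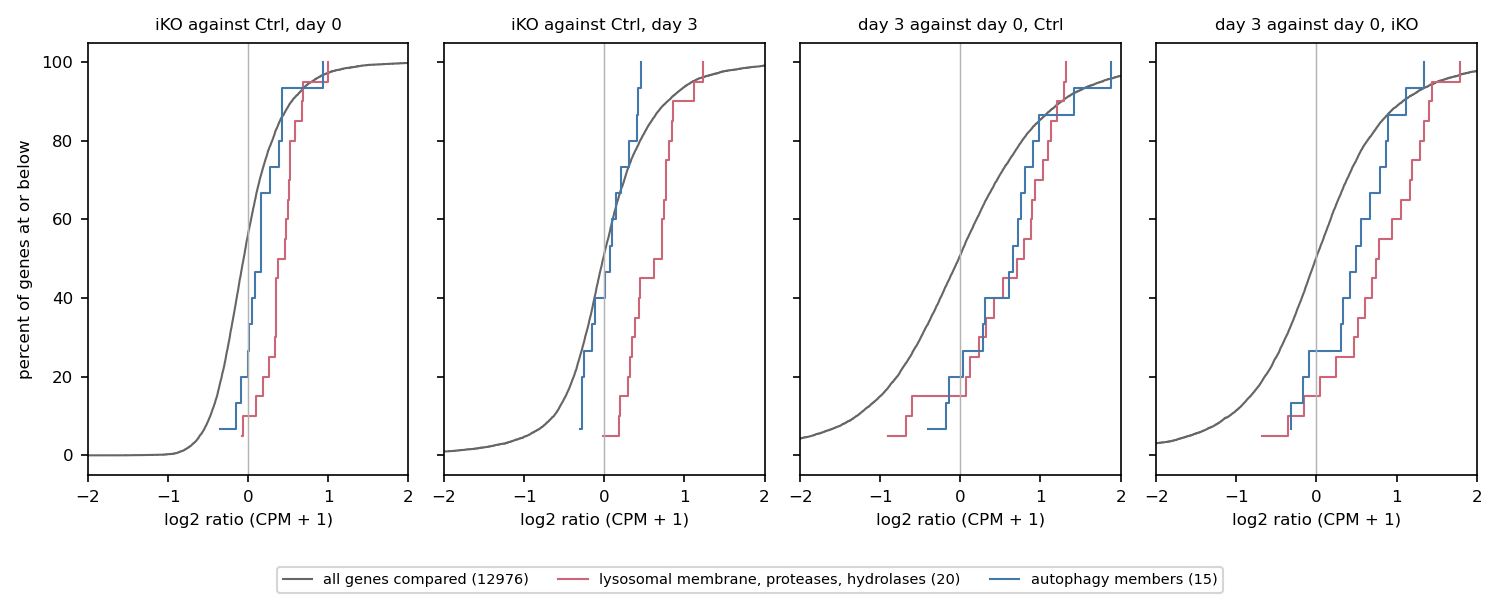
Percent of genes (vertical axis) at or below each log2 ratio (horizontal axis) in the 4 comparisons, for all 12976 genes compared (grey), the 20 lysosomal members (red) and the 15 autophagy members (blue). At day 3 of iKO against Ctrl the autophagy members (median 0.07) run near all genes (median -0.01), while the lysosomal members (median 0.67) lie to the right.

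Among the transcription factors, all 3 members had log2 ratios above 0 on both days. Mitf, the melanocyte lineage factor of the family, had the lowest counts of any member, with 56 counts in D0 Ctrl. It stood at 2.75 CPM in D0 Ctrl, 5.64 in D0 iKO, 5.82 in D3 Ctrl and 10.5 in D3 iKO. The iKO level was 2.05-fold higher at day 0 (1.48 to 2.86) and 1.80-fold higher at day 3 (1.43 to 2.29), and the pseudocount brings the day 0 log2 ratio to 0.82. Mitf was thus higher in iKO at both days, with wide intervals. Tfeb, the factor for which the lysosomal gene program is best known, was at 10.5 CPM in both day 0 libraries, 15.02 in D3 Ctrl and 21.0 in D3 iKO. The ratio of iKO to Ctrl was 1.00 (0.829 to 1.21) at day 0 and 1.40 (1.20 to 1.63) at day 3. Tfe3, its widely expressed paralogue, was at 60.4, 68.4, 71.7 and 81.7 CPM in the same order of libraries. Its iKO level was 1.13-fold higher (1.05 to 1.22) at day 0 and 1.14-fold higher (1.06 to 1.23) at day 3, the smallest ratio of the 3 factors at day 3.

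Of the 6 lysosomal membrane proteins, all 6 lay above 0 at day 0 and 5 at day 3, with medians of 0.36 and 0.74. Lamp1 (Entrez gene 16783, chr8:13159161-13175338), a heavily glycosylated protein that lines the lysosome, stood at 524 CPM in D0 Ctrl, 753 in D0 iKO, 1002 in D3 Ctrl and 1717 in D3 iKO. It was 1.44-fold higher in iKO at day 0 (1.40 to 1.47) and 1.71-fold higher at day 3 (1.68 to 1.74). Both iKO libraries were above the Ctrl library of their day. Lamp2, its relative, which also serves chaperone-mediated autophagy, was at 153, 194, 314 and 519 CPM in the same order. Its iKO level was 1.27-fold higher (1.22 to 1.33) at day 0 and 1.65-fold higher (1.60 to 1.71) at day 3. Cln3, a lysosomal membrane protein mutated in juvenile Batten disease, whose promoter with the CLEAR palindrome is printed above, was at 15.2, 24.7, 36.4 and 61.9 CPM. The Cln3 ratios of iKO to Ctrl, 1.63 (1.41 to 1.88) at day 0 and 1.70 (1.55 to 1.87) at day 3, were alike. For Cd63, a tetraspanin of late endosomes and exosomes, the levels were 159.7, 203, 199.8 and 349 CPM. Cd63 was 1.27-fold higher (1.22 to 1.33) at day 0 and 1.75-fold higher (1.68 to 1.82) at day 3. Scarb2, the receptor that carries glucocerebrosidase to the lysosome, was 1.20-fold higher in iKO (1.15 to 1.249) at day 0, while its day 3 libraries, at 346 and 343 CPM, were nearly equal. Mcoln1, the lysosomal calcium channel TRPML1, ranged from 35.6 to 47.9 CPM and was higher in iKO at both days, by 1.31-fold (1.19 to 1.44) and 1.23-fold (1.12 to 1.36).

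The 6 lysosomal proteases were all above 0 at both days, with medians of 0.55 and 0.74. Ctsd (Entrez gene 13033, chr7:142375910-142387827 in RefSeq on GRCm38.p6), the aspartic protease cathepsin D, stood at 296 CPM in D0 Ctrl, 591 in D0 iKO, 482 in D3 Ctrl and 1137 in D3 iKO. Its iKO level was 1.997-fold higher at day 0 (1.94 to 2.06) and 2.36-fold higher at day 3 (2.30 to 2.42). It was the member with the highest ratio of iKO to Ctrl at both days on the log2 scale, and its D0 iKO library lay above D3 Ctrl. Tpp1, a serine protease that trims peptides and is mutated in late infantile Batten disease, was at 96.6, 156, 179 and 325 CPM. The Tpp1 ratio was 1.61 (1.53 to 1.71) at day 0 and 1.82 (1.74 to 1.89) at day 3. Both iKO libraries were again above their Ctrl library. Ctsb, the cysteine protease cathepsin B, was at 244, 348, 522 and 889 CPM, with ratios of iKO to Ctrl of 1.43 (1.38 to 1.48) and 1.70 (1.66 to 1.74). The Ctsb locus overlaps Fdft1, a gene of cholesterol synthesis that stood at 242, 148, 165 and 83.0 CPM, the other way round. Ctsl, the cysteine protease cathepsin L, was at 60.3, 76.4, 152 and 173 CPM and differed little between the genotypes at day 3, by 1.14-fold (1.08 to 1.20). For Ctsz, cathepsin Z, the ratio was 1.14 (1.04 to 1.26) at day 0 and 1.66 (1.53 to 1.82) at day 3. Ctsa, the protective protein that stabilises beta-galactosidase and neuraminidase, was 1.504-fold higher (1.42 to 1.59) at day 0 and 1.31-fold higher (1.2497 to 1.36) at day 3. Ctsa overlaps Pltp, a lipid transfer gene at 8.40, 33.6, 23.8 and 100.6 CPM in the same order of libraries, and the sources used here do not state whether the counting used strand.

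Among the other hydrolases and their cofactors, 6 of 8 lay above 0 at day 0 and 8 of 8 at day 3. Psap (Entrez gene 19156, chr10:60277628-60302600) encodes the precursor of the saposins, which present lipids to lysosomal enzymes. It had the highest FPKM of all members in every library, with 311 in D0 Ctrl, 467 in D0 iKO, 715 in D3 Ctrl and 1459 in D3 iKO. In CPM it stood at 840.2, 1153, 1842 and 3994. Its iKO level was 1.37-fold higher at day 0 (1.35 to 1.40) and 2.17-fold higher at day 3 (2.14 to 2.20). D3 iKO thus held far more Psap RNA than any other library. Gaa, the acid alpha-glucosidase that degrades glycogen, was at 87.5, 126, 117 and 211 CPM, which gives ratios of 1.44 (1.36 to 1.53) and 1.80 (1.71 to 1.89). Ppt1, which removes palmitate from proteins, was at 93.8, 131, 232 and 358 CPM, with ratios of 1.40 (1.32 to 1.48) and 1.55 (1.49 to 1.61). Both enzymes were higher in iKO at each day. Hexa, a subunit of beta-hexosaminidase, was at 46.4, 66.0, 67.5 and 91.5 CPM, with ratios of 1.42 (1.31 to 1.55) and 1.36 (1.26 to 1.46). The sialidase gene Neu1 was 1.28-fold higher at day 0 (1.14 to 1.44) and at day 3 (1.15 to 1.43). A further 3 glycosidases differed little at day 0: Gla at 14.1 against 13.2 CPM, Gusb at 46.4 against 44.5 and Glb1 at 69.5 against 74.7. At day 3 the same enzymes were higher in iKO, by 1.40-fold for Gla (1.14 to 1.72), 1.15-fold for Gusb (1.02 to 1.28) and 1.26-fold for Glb1 (1.14 to 1.39).

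The V-ATPase differed less, with a median of 0.08 at day 0 and 0.27 at day 3, and with 5 and then 3 of its 5 members above 0 (3 to 4 at day 3 under the alternatives). Atp6v1a (Entrez gene 11964, chr16:44085402-44139702), the catalytic subunit that hydrolyses ATP, stood at 163 CPM in D0 Ctrl, 173 in D0 iKO, 186 in D3 Ctrl and 329 in D3 iKO. It was 1.06-fold higher in iKO at day 0 (1.01 to 1.11) and 1.77-fold higher at day 3 (1.70 to 1.84). The D3 iKO library stood apart from the other 3. Atp6ap1, an accessory subunit, was at 165, 204, 179.9 and 263 CPM, with ratios of 1.24 (1.19 to 1.30) and 1.46 (1.40 to 1.53). Atp6v0d1, a subunit of the membrane sector, was 1.245-fold higher (1.18 to 1.32) at day 0 and equal at 141 CPM in both day 3 libraries. The B2 subunit gene Atp6v1b2 was at 139, 147, 179.6 and 172 CPM, and Atp6v1h, a regulatory subunit, at 74.7, 76.5, 61.4 and 74.3 CPM. Neither of them differed by 1.5-fold between genotypes at either day.

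The genes that start autophagy did not follow the lysosomal genes at day 3. Of the 6 initiation and membrane genes, 4 lay above 0 at day 0 and 2 at day 3, with medians of 0.12 and -0.20. Wipi1 (Entrez gene 52639, chr11:109573521-109611389), which reads the phosphoinositide made at forming autophagosomes, stood at 12.3 CPM in D0 Ctrl, 24.6 in D0 iKO, 48.1 in D3 Ctrl and 64.1 in D3 iKO. Its iKO level was 1.99-fold higher at day 0 (1.71 to 2.32) and 1.33-fold higher at day 3 (1.23 to 1.45). Wipi1 was thus an exception in its group at day 0. Ulk1, the kinase that starts autophagy and is held off by mTORC1, was at 68.4, 72.4, 113 and 91.6 CPM. The Ulk1 ratio was 1.06 (0.984 to 1.14) at day 0, and at day 3 the gene was 1.23-fold lower in iKO (1.16 to 1.31). Uvrag, a partner of Beclin 1, was at 22.4, 17.3, 16.8 and 13.7 CPM, which is 1.29-fold lower (1.13 to 1.49) at day 0 and 1.23-fold lower (1.04 to 1.45) at day 3. Both differences in Uvrag had the same direction. Becn1, encoding Beclin 1 of the lipid kinase complex, was at 70.7, 66.5, 63.9 and 53.3 CPM, and was 1.20-fold lower in iKO at day 3 (1.10 to 1.30). Atg9a, the lipid scramblase that seeds autophagosome membrane, was at 59.6, 66.6, 119 and 107 CPM. Wipi2, a relative of Wipi1, was at 66.0, 73.6, 124 and 138 CPM and 1.11-fold higher in iKO at each day. Neither Atg9a nor Wipi2 differed by 1.5-fold between genotypes at either day.

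The 3 genes of LC3 conjugation, the step that attaches LC3 to lipid, had medians of 0.00 at day 0 and 0.01 at day 3, with signs that depended on the scaling. Atg7, the activating enzyme, was at 42.3 CPM in D0 Ctrl, 43.9 in D0 iKO, 52.5 in D3 Ctrl and 65.0 in D3 iKO. Atg16l1, the scaffold that brings the conjugation complex to membrane, was at 30.9, 27.7, 31.5 and 25.9 CPM. The ratios at day 3 went in opposite directions, with Atg7 1.24-fold higher (1.14 to 1.35) and Atg16l1 1.22-fold lower (1.08 to 1.37). Atg5, which is joined to Atg12 in the same complex, was at 34.1 CPM in both day 0 libraries and at 29.9 and 30.2 at day 3.

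The LC3 and GABARAP proteins sit on the autophagosome, and Sqstm1 (p62) is a receptor that binds them and cargo. All 6 lay above 0 at day 0 and 5 at day 3, with medians of 0.33 and 0.15. Sqstm1 (Entrez gene 18412, chr11:50200152-50210820) stood at 130.3 CPM in D0 Ctrl, 176 in D0 iKO, 221 in D3 Ctrl and 304 in D3 iKO. It was 1.35-fold higher in iKO at day 0 (1.28 to 1.42) and 1.38-fold higher at day 3 (1.33 to 1.43). The Sqstm1 ratio was much the same on the 2 days. Map1lc3b, the LC3B gene, was at 78.9, 104, 213 and 227 CPM, with ratios of 1.31 (1.23 to 1.40) and 1.07 (1.02 to 1.11). Gabarap was at 162, 217, 257 and 269.9 CPM, with ratios of 1.34 (1.28 to 1.40) and 1.05 (1.01 to 1.09). Both were higher in iKO mainly at day 0. Gabarapl1 was at 81.8, 91.6, 125 and 168 CPM, and its ratio was 1.12 (1.05 to 1.20) at day 0 and 1.34 (1.27 to 1.41) at day 3. Map1lc3a was at 31.6, 38.2, 56.0 and 51.4 CPM, and Gabarapl2 at 69.3, 69.5, 84.3 and 97.9. Map1lc3a was 1.21-fold higher in iKO at day 0 (1.09 to 1.34) and 1.09-fold lower at day 3 (0.998 to 1.19), the one gene of the 6 below 0 there.

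**Figure D3:**
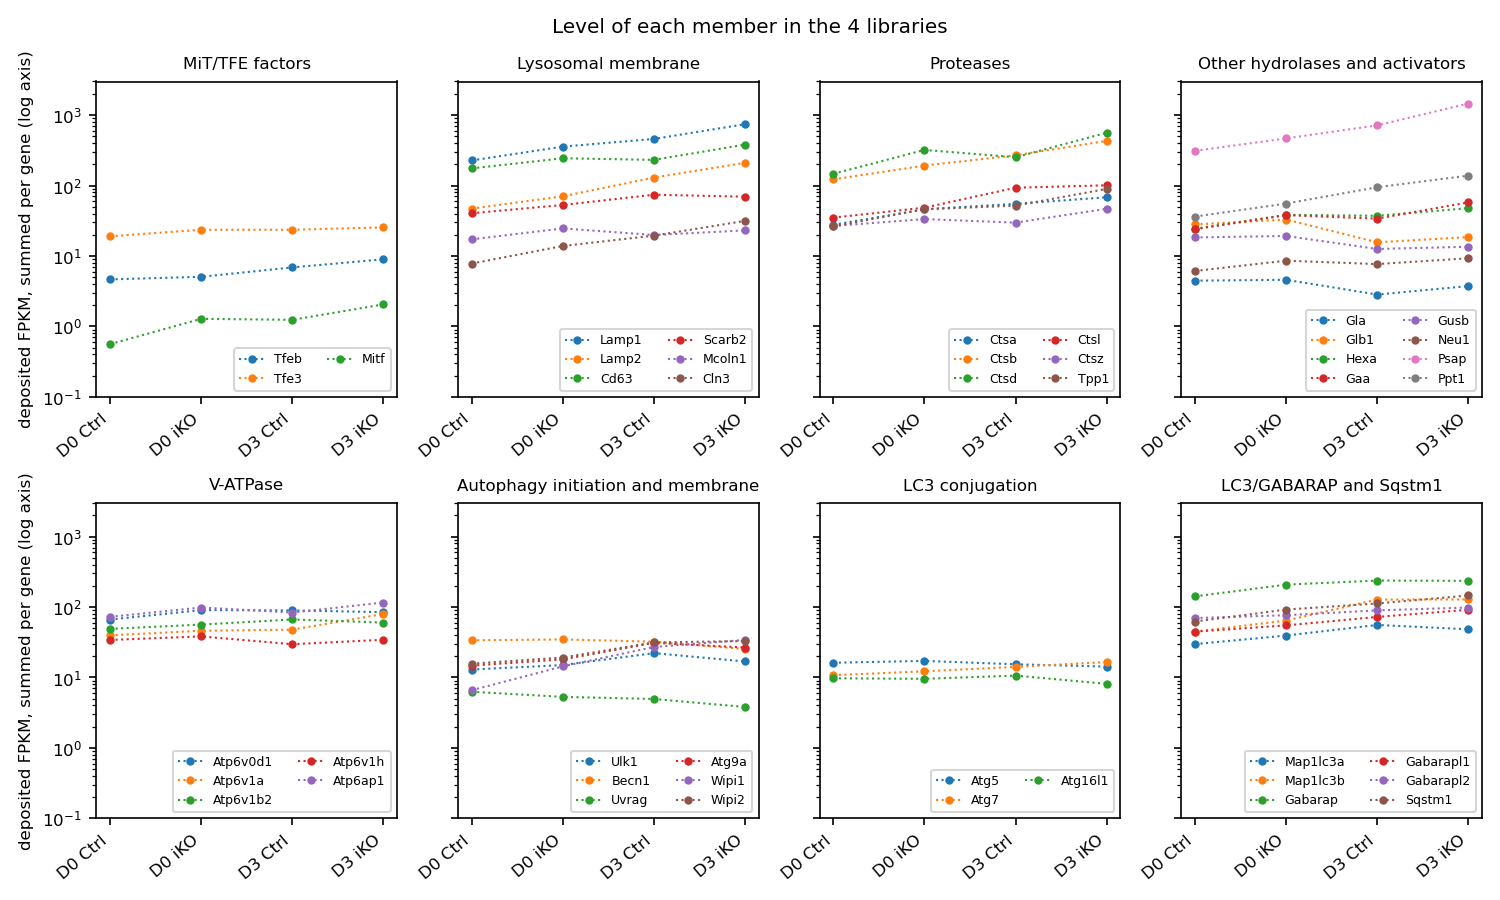
Deposited FPKM summed per gene (vertical log axis) of every member in the 4 libraries (horizontal axis), in 1 panel for each of the 8 roles; dotted lines join the values of a gene and are no time course of one culture. Psap runs from 311 in D0 Ctrl to 1459 in D3 iKO, and Mitf lies lowest.

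Most members were higher at day 3, in differentiation medium, than at day 0 in both genotypes. In the Ctrl libraries the median ratio of day 3 to day 0 was 0.53, against -0.02 over all genes, with 36 of 43 above 0 (49.0% of all genes) under every alternative. In 2-fold terms 8 members were higher (14.6% of all genes) and none lower (15.1%): Wipi1, Map1lc3b, Ctsl, Psap, Ppt1, Cln3, Ctsb and Lamp2. At 1.5-fold 21 were higher (25.8% of all genes), while Glb1, Gla and Gusb were lower (26.7%). Wipi1 was 3.89-fold higher at day 3 in Ctrl (3.38 to 4.49), Map1lc3b 2.70-fold (2.55 to 2.86) and Ctsl 2.51-fold (2.35 to 2.69). Glb1, the lysosomal beta-galactosidase, was 1.89-fold lower (1.73 to 2.07). Of the 13 astrocyte markers, 11 were 2-fold higher in these libraries too, and their part in the members' ratios was not tested.

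In the iKO libraries the median ratio of day 3 to day 0 was 0.61, against -0.01 over all genes, with 35 of 43 above 0 (49.6% of all genes, and 33 to 35 members under the alternatives). Here 10 members were 2-fold higher (11.2% of all genes) and none lower (11.5%). They comprise the 8 of the Ctrl comparison, with Lamp1 and Tpp1 in addition. The share of all genes 2-fold higher in both comparisons was not computed, so this overlap has no reference. At 1.5-fold 22 were higher (21.5% of all genes), and Glb1 was lower (21.9%). Psap was 3.46-fold higher in iKO (3.41 to 3.51), against 2.19-fold in Ctrl (2.15 to 2.23). Ppt1 was 2.73-fold higher (2.62 to 2.86), against 2.47-fold in Ctrl (2.34 to 2.61). Wipi1 was 2.61-fold higher (2.35 to 2.89), less than in Ctrl. Of the 13 astrocyte markers, 10 were 2-fold higher.

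Over the 4 libraries, 29 of 43 members were highest in D3 iKO, which was so for 28.1% of all genes, and 35 were lowest in D0 Ctrl (29.3% of all genes). The full order D0 Ctrl, D0 iKO, D3 Ctrl, D3 iKO from low to high was found for 22 members and 14.5% of all genes. A ratio above 0 in all 4 comparisons was found for 29 members and 18.1% of all genes, though each library enters 2 of those comparisons.

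The day 3 log2 ratio of iKO to Ctrl minus that of day 0 had a median of 0.08 over the members and 0.06 over all genes. Scaled by library totals, these medians were -0.12 and -0.13. At 1.5-fold this difference was higher for 2 members (13.1% of all genes), Atp6v1a at 0.73 and Psap at 0.66, and lower for none (11.6%). Its lowest value was -0.53, for Wipi1. The 20 lysosomal members had a median difference of 0.23 and the 15 autophagy members one of -0.12. With library totals these were 0.02 and -0.33, so the size of the lysosomal value rests on the scaling. The lysosomal value was the higher one under both scalings. With single libraries this difference has no test.

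Further genes of the same pathways, from lists of genes that are not members, were read in the same way. Their counts stand against 43.5% of all genes above 0 at day 0 and 48.7% at day 3. Of 34 other lysosomal enzymes and cofactors compared, 29 lay above 0 at day 0 and 31 at day 3, with medians of 0.31 and 0.51. Manba, a beta-mannosidase, was at 7.86 CPM in D3 Ctrl and 23.3 in D3 iKO, 2.97-fold higher (2.47 to 3.58), and Ctsh, cathepsin H, was at 4.03 and 10.97 CPM, 2.72-fold higher (2.10 to 3.57). Of 21 other lysosomal membrane proteins, 17 and 16 lay above 0, with medians of 0.18 and 0.22. Abcb9, a peptide transporter, was at 6.81 CPM in D3 Ctrl and 16.0 in D3 iKO, 2.35-fold higher (1.91 to 2.90), and Laptm4b at 61.7 and 125 CPM, 2.02-fold higher (1.88 to 2.16). The enzymes outside the member list thus lay mostly above 0 as well. The 13 other V-ATPase subunits had medians of 0.19 and 0.34, with Atp6v0a2 at 128 CPM in D3 Ctrl and 249.8 in D3 iKO, and Atp6v1c1 at 38.7 and 58.8.

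Of 27 other core autophagy genes 15 lay above 0 at day 0 and 11 at day 3, with medians of 0.02 and -0.10. Ulk2, the paralogue of Ulk1, was at 181 CPM in D3 Ctrl and 127 in D3 iKO, 1.43-fold lower (1.35 to 1.5), and Atg10 at 4.12 and 7.69 CPM, 1.86-fold higher (1.41 to 2.47). The core genes thus lay near all genes. Of the 12 autophagy receptors 10 lay above 0 at day 0 and 8 at day 3, with medians of 0.14 and 0.12. At 1.5-fold 4 and 3 of them were higher (8.91% and 15.1% of all genes). Among them Tex264, a receptor for endoplasmic reticulum, was 1.89-fold higher at day 3 (1.73 to 2.07), and Retreg1, which has the same cargo, 1.65-fold higher (1.33 to 2.05). Of the 12 regulators of TFEB and autophagy genes linked to p53, 8 and 9 lay above 0, with medians of 0.07 and 0.16. Ppargc1a, a transcriptional coactivator of mitochondrial genes, was at 33.4 CPM in D0 Ctrl, 65.7 in D0 iKO, 73.5 in D3 Ctrl and 205 in D3 iKO, and Plekhf1 at 9.95 CPM in D3 Ctrl and 16.9 in D3 iKO. The 11 genes of mannose 6-phosphate sorting, which delivers new hydrolases to the lysosome, had medians of -0.06 and -0.01, with 2 and 5 above 0. M6pr, a receptor of this route, was 1.51-fold higher (1.42 to 1.61) at day 3 and Gga3, an adaptor of it, 1.71-fold lower (1.55 to 1.90).

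The files give an estimate for each RefSeq transcript, and 27 members have more than 1. In Lamp2 the share of NM_001017959.2 in the gene's expected counts was 13.4% in D0 Ctrl (exact binomial 95% interval 12.3 to 14.7), 22.4% in D0 iKO (21.1 to 23.6), 44.2% in D3 Ctrl (42.9 to 45.4) and 50.4% in D3 iKO (49.4 to 51.4). NM_010685.4 held 84.1%, 76.3%, 54.2% and 49.1% in the same order. The share of the first transcript was higher at day 3 than at day 0 and higher in iKO than in Ctrl, as was the level of the gene. In Psap NM_011179.3 had 22.7% in D0 Ctrl (22.1 to 23.4), 25.1% in D0 iKO (24.6 to 25.6), 41.1% in D3 Ctrl (40.6 to 41.6) and 50.7% in D3 iKO (50.4 to 51.1), while NM_001146124.1 had 60.9%, 59.0%, 37.8% and 29.6%. Tfeb showed the same kind of order, with NM_001161722.1 at 30.1%, 37.3%, 53.03% and 69.9%. These shares are estimates that split reads between overlapping models, and the intervals leave out the uncertainty of that split. In Atg9a the share of NM_001003917.4 ran 22.5%, 63.4%, 53.8% and 35.1%, with no shared order by day or genotype. The same lack of order held for Mitf, with NM_001113198.1 at 62.7%, 38.0%, 39.9% and 94.3% on low counts. It also held for Atg16l1, with NM_001205392.1 at 79.9%, 68.5%, 40.2% and 73.8%. How many of the 27 members follow the order of Lamp2, Psap and Tfeb was not counted.

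**Figure D4:**
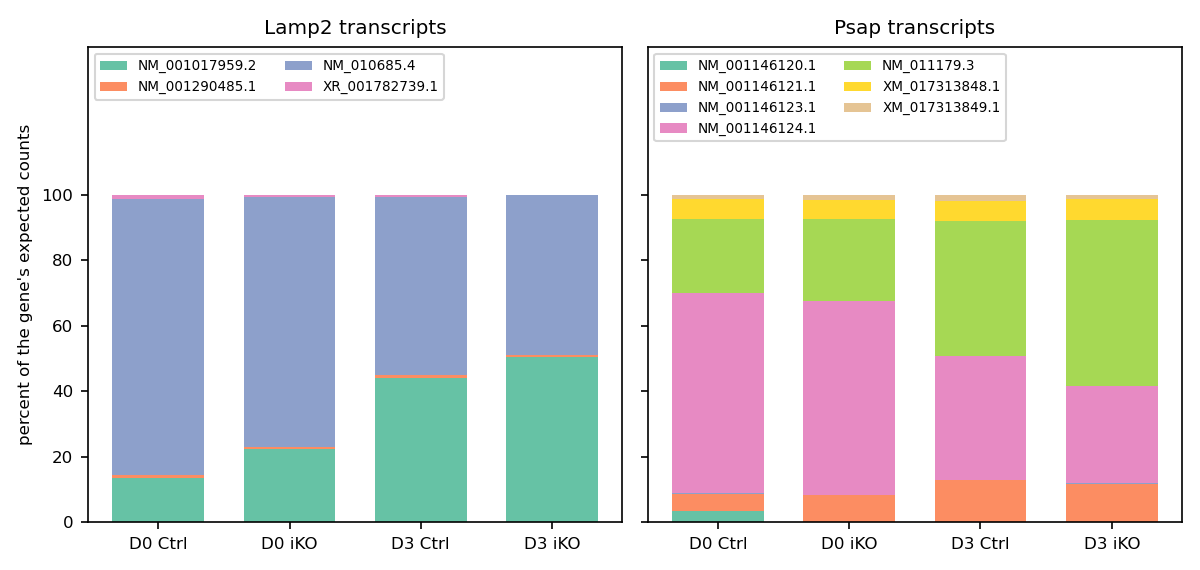
Share of the gene's expected counts (vertical axis, percent) estimated for each RefSeq transcript of Lamp2 and Psap (stacked colours) in the 4 libraries (horizontal axis). The share of NM_001017959.2 in Lamp2 goes from 13.4% to 50.4%, and that of NM_011179.3 in Psap from 22.7% to 50.7%, from D0 Ctrl to D3 iKO.

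Reads at these loci may be shared with other genes. Of the 43 members, 20 overlap another RefSeq gene, and Cd63 and Gabarapl2 each have a named pseudogene, Cd63-ps and Gabarapl2-ps. Values of these genes are uncertain to the extent that the counting split such reads.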

How the data were processed

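Per the submitters' processing notes, reads were handled with HISAT, Bowtie2 and StringTie on mm10, versions not given. The expected counts that the authors deposited for each of 55122 RefSeq transcripts were summed over each of 17621 genes. The FPKM values that the authors deposited beside them were summed likewise and used for levels between genes. Their unit is inferred from the values, which follow count, length and depth. The log2 ratios and the FDR (adjusted p-value) in the authors' deposited table for day 3 were read for members and listed genes. The day 0 table of this kind was not used here, because as held it ends within a row. Symbols came from RefSeq for 17498 genes, from the authors for 12, and 111 have none.

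Libraries were scaled with TMM (edgeR 4.0.16 in R 4.3.3). A minimum mean of 1 CPM left 12976 genes, compared as log2 ratios with a pseudocount of 1 CPM, and 2-fold was the main threshold, with 1.5-fold as a looser one. Folds in the text carry no pseudocount and have exact conditional (Clopper-Pearson) 95% intervals (scipy 1.17.1). The ratio code was tested on simulated counts. There is 1 library per group, so no model was fitted. Library totals, DESeq2 1.42.0 size factors, TMM without ribosomal protein and histone genes, pseudocounts of 0.1 and 5, no minimum, a minimum of 5 CPM, and the deposited FPKM were the alternatives.

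The members and all gene lists were chosen with earlier results of these data known. Values in every library are given for members 2-fold different in any of the 4 comparisons and for the 2 members of each role with the largest ratio of iKO to Ctrl at either day, and further members were added for completeness. Of every other list, the 2 compared genes with the largest absolute log2 ratio of iKO to Ctrl at day 3 are named (1 of the microglia list, where 1 was compared), beside markers named for their level. Gene positions and promoters are RefSeq's on GRCm38.p6. Ctss, Acp5, Trem2 and Tyrobp were listed and are not analysed here.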

Additional observations from a re-analysis of the deposited data

How the results depend on the processing

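No paired analysis was possible because each group has 1 library. The members' median log2 ratio of iKO to Ctrl at day 0 was 0.31, and it was 0.44 with library totals and 0.43 with the deposited FPKM. At day 3 it was 0.35, and 0.24 with FPKM. For day 3 against day 0 in iKO it was 0.61, and 0.47 with library totals and 0.42 with FPKM. The difference between days was 0.08, and -0.12 with library totals and -0.10 with FPKM, so its sign depends on the scaling. The median of all genes moved along with it, at 0.06, -0.13 and -0.11 in the same order. The number of members 2-fold higher in iKO at day 0 was 0, and it was 1 with a pseudocount of 0.1 CPM, 2 with library totals and 2 with FPKM. Library totals moved the median of all genes by 0.12 at day 0, -0.08 at day 3 and -0.13 between days in iKO. Relative to the median of all genes, the members' median stayed between 0.31 and 0.40 at day 0 and between 0.32 and 0.37 at day 3 over all 8 alternatives. Over all genes, 347 were 2-fold higher and 43 lower at day 0, against 706 and 78 with a pseudocount of 0.1, 111 and 13 with one of 5, 469 and 25 with library totals, and 252 and 19 with FPKM. At day 3 the counts were 815 and 620, against 431 and 358 with a pseudocount of 5, and 477 and 480 with FPKM. Between days in iKO they were 1459 and 1486, against 1202 and 1820 with library totals and 932 and 1474 with FPKM. Some members changed sign over the alternatives: 4 at day 0, 3 at day 3 (Atg5, Atp6v0d1 and Gabarap), 0 between days in Ctrl, 2 between days in iKO (Atp6v0d1 and Mcoln1) and 10 in the difference between days. Counting error is small at this depth, with the widest intervals for Mitf, and the spread between cultures is not known from 1 library per group.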
